A study of Mus musculus with 42 samples.

Results

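The protein-coding genes of the mitochondrial respiratory chain and ATP synthase were followed in mouse joint soft tissue after knee arthroplasty, an operation that replaces joint surfaces with an implant. Members were the rows of the joint count table whose Ensembl identifier carried a protein-coding symbol starting mt-, Nduf, Uqcr, Sdh, Cox4 to Cox8 or Atp5, without the assembly factors named Sdhaf or Ndufaf and without pseudogenes. This gave 96 of 36604 listed genes, 12 encoded by mitochondrial DNA and 84 by the nucleus. All samples came from wild-type C57BL/6 mice. The joint soft tissue samples formed 6 groups of 4 libraries, labelled RST on days 3, 7, 14, 21 and 35 and LST on day 35. RST and LST are codes left unexplained in the labels, and LST was sampled on day 35 alone, so an RST group of an earlier day differs from LST in label and day at once. All comparisons with LST share its 4 libraries. Lymph nodes of the same study, labelled NoImplant, ContraImplant and Implant on days 7 and 14, gave 18 further libraries that are used here only for levels. Joint libraries held 17842090 to 28024003 counts. Nothing in the labels says that the 4 joint replicates came from separate animals, so the p-values reflect variation among libraries that could be technical.

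The respiratory chain passes electrons from NADH (complex I) and succinate (complex II) through ubiquinone, complex III and cytochrome c to oxygen at complex IV, and ATP synthase (complex V) uses the proton gradient they build. Mitochondrial DNA encodes a few core subunits of complexes I, III, IV and V, and every other subunit, including all of complex II, is encoded in the nucleus and imported. Skeletal muscle is rich in these complexes and uses its own isoforms of several complex IV subunits.

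Of the 12 mitochondrially encoded members, 7 belong to complex I, 1 to complex III, 3 to complex IV and 1 to complex V. The 84 nuclear members comprised 38 of complex I, 4 of complex II, 8 of complex III, 18 of complex IV and 16 of complex V, assigned by symbol. The count table resolved the mitochondrial genes very unequally. Over the 24 joint libraries mt-Co1, the catalytic subunit of complex IV, had 13389060 counts, mt-Cytb, the cytochrome b of complex III, 8536755, and mt-Nd1 of complex I 6418199. mt-Co2 and mt-Co3, the other core subunits of complex IV, had 37 and 32 counts, mt-Atp6, the proton channel of ATP synthase, 9, and mt-Nd4l of complex I 1 count. mt-Nd3 had 538. On the mitochondrial chromosome these genes lie at 7013 to 7696 (mt-Co2), 7927 to 8607 (mt-Atp6), 8607 to 9390 (mt-Co3), 9459 to 9806 (mt-Nd3) and 9877 to 10173 (mt-Nd4l), one after another, with mt-Co1 before them at 5328 to 6872. In LST libraries, per kilobase of annotated exon, mt-Co1 stood at 23709 CPM (counts scaled to a common library total) and mt-Nd3 at 4.14, against 0.196 for mt-Co2, 0.10 for mt-Co3, 0.0359 for mt-Nd4l and 0.0313 for mt-Atp6.

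These 5 genes are those whose sequence is nearly all repeated elsewhere in the mm10 reference. Of the 50-base windows of each transcript, 100% of those of mt-Co2 occurred in another GENCODE M21 transcript, 99.9% of those of mt-Co3, 99.5% of mt-Atp6, 98.8% of mt-Nd4l and 98.0% of mt-Nd3. The share was 62.2% in mt-Nd4, 51.1% in mt-Co1, 8.19% in mt-Nd2, 7.61% in mt-Nd5 and 0% in mt-Nd1, mt-Nd6 and mt-Cytb. The copies of the 5 genes lie side by side on the minus strand of chromosome 1, in the mm10 stretches chr1:24614885-24615565 for mt-Co2, chr1:24613974-24614651 for mt-Atp6, chr1:24613189-24613971 for mt-Co3, chr1:24612775-24613119 for mt-Nd3 and chr1:24612407-24612700 for mt-Nd4l. GENCODE M21 names them as the unprocessed pseudogenes Gm28661, Gm10925, Gm28437, Gm28438 and Gm10222. Over 681 aligned bases mt-Co2 and its copy had 0 mismatches, and over 345 aligned bases mt-Nd3 and its copy had 1. The table held few counts for the copies too, from 27 for Gm10222 to 141 for Gm28438 over the 24 libraries. How reads with several matches were treated is not given in the sources used here, and its part in these levels was not tested. Windows of both genes are shown beside the same stretch of the copy, from the first base of the transcript for mt-Nd3 and from base 311 for mt-Co2. A capital marks the mismatch.
mt-Nd3, bases 1 to 60: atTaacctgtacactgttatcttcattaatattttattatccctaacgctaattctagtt
Gm28438: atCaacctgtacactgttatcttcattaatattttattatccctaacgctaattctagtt
mt-Co2, bases 311 to 370: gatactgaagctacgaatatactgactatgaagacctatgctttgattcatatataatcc
Gm28661: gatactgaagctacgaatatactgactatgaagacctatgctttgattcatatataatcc

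**Figure D1:**
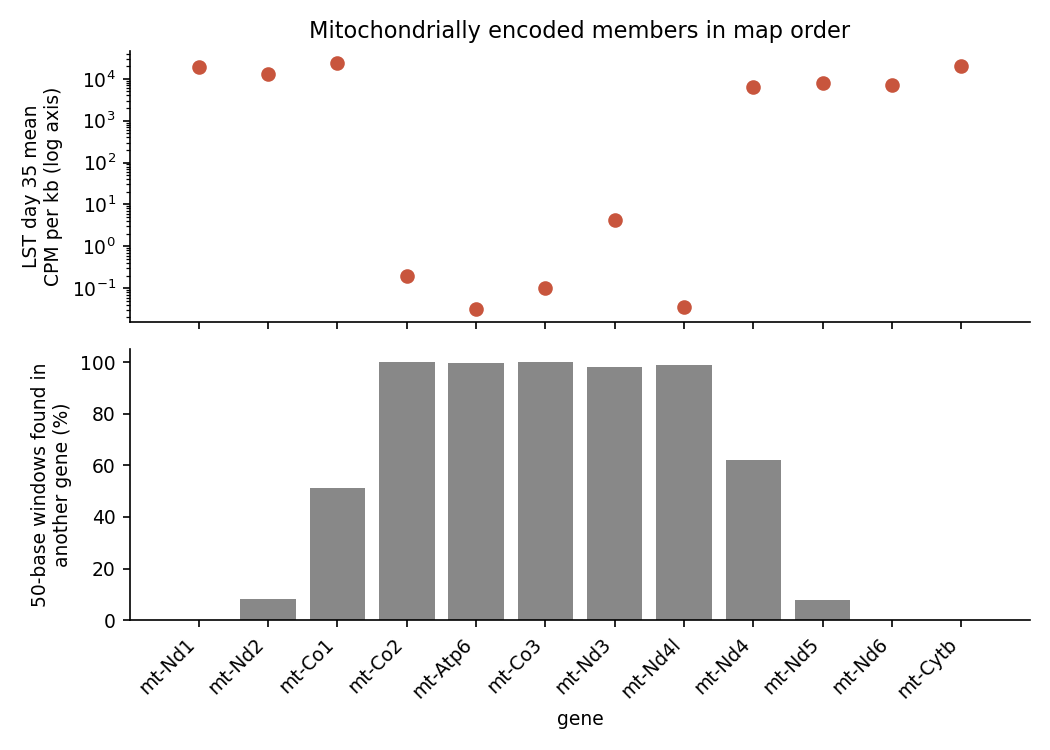
The 12 mitochondrially encoded members in the order of the mitochondrial map. The upper panel shows the mean LST day 35 level in CPM per kilobase on a log axis, and the lower panel the share of 50-base windows found in another gene. The 5 genes above 90% in the lower panel are the 5 lowest in the upper panel, while mt-Nd4 at 62.2% and mt-Co1 at 51.1% lie with the genes that share few windows.

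Genes with too few counts in the joint libraries were not tested. This left 8 mitochondrially encoded members (mt-Nd1, mt-Nd2, mt-Nd3, mt-Nd4, mt-Nd5, mt-Nd6, mt-Cytb and mt-Co1) and 82 nuclear ones. The other 6 were the 4 genes with fewest counts above and the nuclear Cox7b2 and Cox8c, isoforms known from testis, which were at 0 in every LST library. mt-Nd6 is read from the strand opposite to mt-Nd5 and overlaps it, and mt-Nd4 overlaps mt-Nd4l. Whether counting used strand is not given, so reads of such pairs may not be separated. Among nuclear members the largest shared shares were 37.0% for Ndufb4, 35.8% for Ndufs3 and 31.1% for Ndufs5, each with a processed pseudogene, and these levels are uncertain for the same reason.

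On days 3 and 7 nearly the whole nuclear set was lower in RST than in LST day 35, with 77 of 82 members lower on each day at an edgeR adjusted p below 0.05. The background was high, since 30.1% of the 16149 genes tested were lower on day 3 and 35.1% on day 7. The median log2 fold change of the nuclear members was -0.98 on day 3 and -1.19 on day 7, beside 0.09 and 0.08 for all genes tested. All 8 tested mitochondrially encoded members were lower on both days, with medians of -1.26 and -1.73. Against these, 3 nuclear members were higher on day 3 and 4 on day 7, where 38.6% and 41.0% of all genes were higher. 1 of the 4, Cox6b2, passed the low-count filter only through RST libraries and is given as a description. On day 14, 69 nuclear members were lower and 4 higher with a median of -0.45, and the 8 mitochondrially encoded members were lower with a median of -0.70, against 24.5% of all genes lower and 33.4% higher. Cox6b2, with the same limit, is again among the 4. RST day 14 replicate 2 was the lowest of its group for 76 of the 82 nuclear members, and without it 50 nuclear members passed. In bulk tissue, fewer cells of a type and less RNA per cell cannot be told apart.

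On day 21 fewer members passed against LST. Among nuclear members Cox8b was lower and Cox6a1 higher, the median was -0.25, and 0 of 8 mitochondrially encoded members passed, with a median of -0.28. At an unadjusted p below 0.05, 26 nuclear and 0 mitochondrially encoded members passed on that day, and DESeq2 called 10 and 0. Of all genes, 5.42% were lower and 21.7% higher. Without RST day 21 replicate 3 the nuclear count was 19, and without replicate 2 it was 1. With the replicate number as a block, 14 nuclear members were lower and 2 higher. The shares of all genes are those of the main fit, not of these alternatives. On day 35, 0 nuclear and 0 mitochondrially encoded members differed between RST and LST by edgeR, with medians of -0.02 and -0.01. There 1 nuclear member, Cox6a1, had an unadjusted p below 0.05, DESeq2 called 0, and 0.0495% of all genes were lower and 2.92% higher.

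With library size alone in place of TMM, the scaling that sets the CPM values here by the bulk of genes, the median of all genes tested moved to 0.61 on day 3, 0.71 on day 7 and 0.33 on day 14. The nuclear medians were then -0.46, -0.57 and -0.18 and the mitochondrially encoded ones -0.73, -1.12 and -0.43, so both stayed below the median of all genes. Under that scaling 62 nuclear members were lower and 5 higher on day 3, 73 and 4 on day 7, and 19 and 4 on day 14, and 7, 8 and 8 mitochondrially encoded members were lower. The shares of all genes given above belong to the TMM fit and are not a background for these counts.

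From day 3 to day 7, 12 of 82 nuclear members (14.6%) fell, with a median of -0.23, and 6 of the 8 mitochondrially encoded members fell, with a median of -0.48. The 1 nuclear member counted as higher was Cox6b2, which is given only as a description because of the filter limit above. Of all genes 22.5% fell and 18.7% rose in that step, so the nuclear share was below the background. With only the groups compared, 8 nuclear and 1 mitochondrially encoded members passed. These counts rest on single libraries: without RST day 3 replicate 1 no mitochondrially encoded member passed, without RST day 7 replicate 1 all 8 and 30 nuclear members did, and without RST day 7 replicate 3 the nuclear count was 5. The background of all genes above is from the fit with all 24 libraries and does not apply to these alternatives. From day 7 to day 14, 77 nuclear members rose and 3 (Cox6a1, Cox8a and Ndufa4l2) fell, with a median of 0.71, and 7 mitochondrially encoded members rose, with a median of 0.98. In that step 20.9% of all genes rose and 18.0% fell. Cox8a fell by 0.34 and Ndufa4l2 by 0.40 on the log2 scale, and these calls were lost without any 1 of 5 and of 6 of the 8 libraries, with edgeR adjusted p-values up to 0.125 and 0.137. mt-Nd3 was the mitochondrially encoded member that did not pass, at a log2 fold change of 0.59 ± 0.28 (SE) and an edgeR adjusted p of 0.0926.

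After day 14 the single steps were small. From day 14 to day 21 1 nuclear member passed, Ndufa4l2, which fell by 0.65 on the log2 scale (edgeR adjusted p = 0.0479), and 0 mitochondrially encoded members did, with medians of 0.19 and 0.42. At an unadjusted p below 0.05 there were 18 and 6, and DESeq2 called 4 and 1. The Ndufa4l2 call was lost without any 1 of 6 of the 8 libraries, all but RST day 14 replicate 3 and RST day 21 replicate 2, with adjusted p-values of 0.0577 to 0.229. Of all genes 0.65% fell and 0.0867% rose. Without RST day 21 replicate 2, the lowest of its group for 76 of the 82 nuclear and all 8 mitochondrially encoded members, 28 nuclear and 6 mitochondrially encoded members passed. The shares of all genes just given belong to the fit with all 24 libraries, so they are not a background for that count. From day 21 to day 35, 0 members of either kind passed, with medians of 0.24 and 0.29, 7 nuclear and 0 mitochondrially encoded members at an unadjusted p below 0.05, 0 by DESeq2, and 3.89% of all genes lower and 0.0805% higher. Over the 5 RST days together, 81 of 82 nuclear and 8 of 8 mitochondrially encoded members changed, where 79.6% of all genes did. Cox4i2 was the exception, at an edgeR adjusted p of 0.499.

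**Figure D2:**
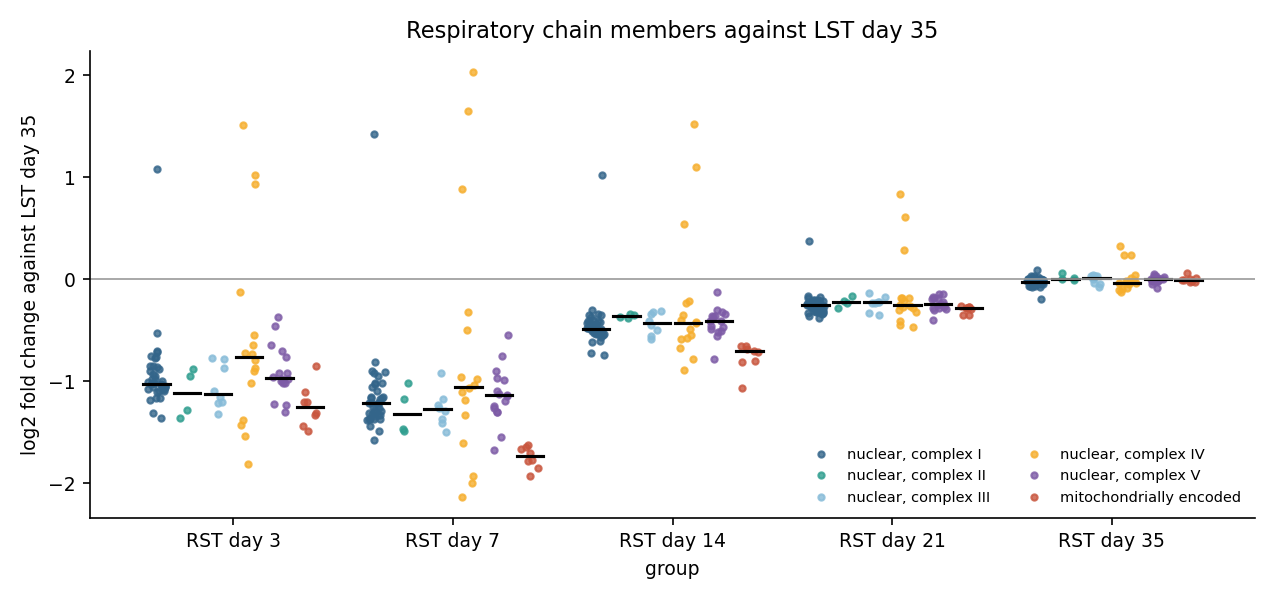
Log2 fold change of each tested member against LST day 35, by RST day, with nuclear members split by complex as assigned by symbol and the 8 mitochondrially encoded members at the right of each day. Points are genes and black bars medians. Every mitochondrially encoded point lies below 0 on days 3, 7 and 14, the few points above 0 are mostly of complex IV, and on day 35 the medians lie near 0.

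Mitochondrially encoded members lay further below LST than nuclear ones. The mean log2 CPM over the 82 nuclear members was 7.51, 7.62, 7.56 and 7.46 in the LST libraries and 6.69, 6.46, 6.34 and 6.33 in the RST day 7 libraries. The mean over the 8 mitochondrially encoded members was 12.06, 12.23, 12.12 and 12 in LST and 10.73, 10.48, 10.08 and 10.13 on RST day 7. Neither measure overlapped between the groups, and the gap was wider for the mitochondrially encoded members, at -1.75 against -1.09. Within each library the mitochondrially encoded mean minus the nuclear mean was 4.56 ± 0.03 (SD, n = 4) in LST, 4.21 ± 0.14 on RST day 3, 3.90 ± 0.15 on day 7, 4.20 ± 0.11 on day 14, 4.49 ± 0.08 on day 21 and 4.56 ± 0.13 on day 35. The libraries of days 3, 7 and 14 all lay below those of LST, by 0.35, 0.66 and 0.36 in the group means, and those of days 21 and 35 overlapped LST. No p-value is given for this score, since the members were chosen together.

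The lower ratio was also seen without single genes or classes of genes. On day 7 the difference from LST was -0.70 without mt-Nd3 and -0.57 without members that share over 5% of their windows with another gene. Of the mitochondrially encoded members, the latter set kept mt-Nd1, mt-Nd6 and mt-Cytb alone. The difference was -0.67 without complex II, -0.65 with medians over members in place of means, and -0.53 without the 4 nuclear members that were higher on that day. In each of these the day 7 libraries did not overlap LST. As a share of all counts, the 12 mitochondrially encoded members took 9.04 to 10.4% of an LST library and 3.69 to 5.44% of a RST day 7 library, and the 84 nuclear members 2.26 to 2.41% and 1.42 to 1.71%. Both shares were lower in every day 7 library than in any LST library.

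**Figure D3:**
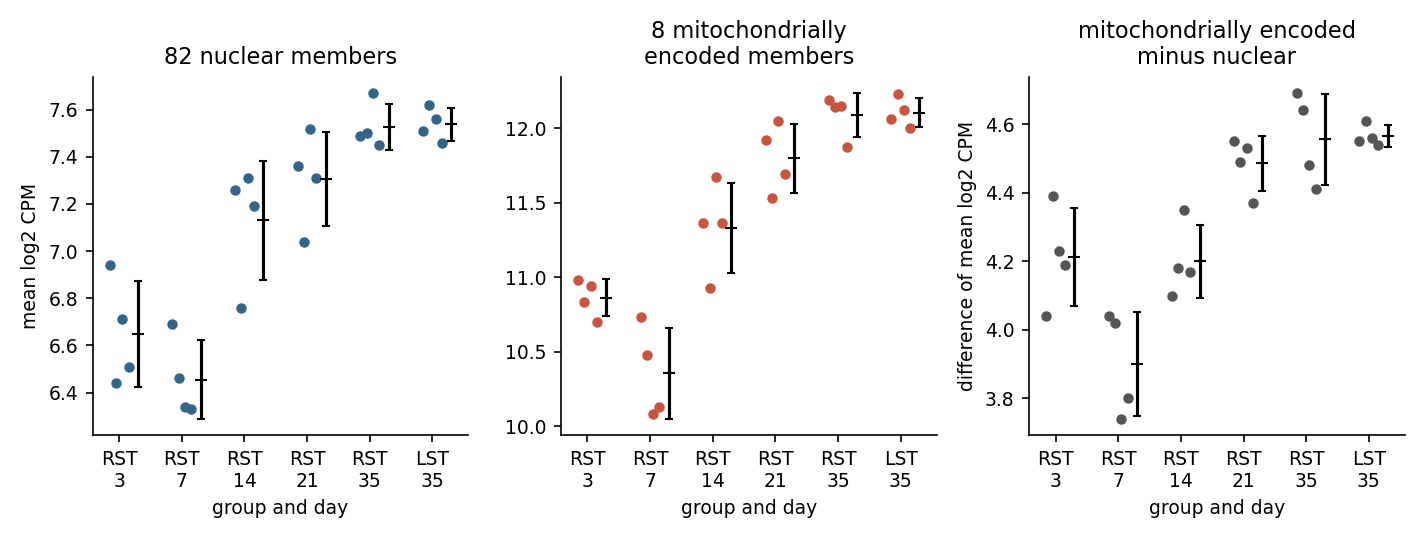
Mean log2 CPM of the 82 tested nuclear members (left), of the 8 mitochondrially encoded members (middle) and the difference of both means (right) in each of the 24 joint libraries. Points are libraries, and the bar beside them gives the group mean and SD. The group means of all 3 measures are lowest on RST day 7, and the difference rises from 3.90 on day 7 to 4.56 on RST day 35, the LST mean.

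Markers of several cell types also differed from LST, some lower like most of these genes and others higher. All 20 genes of a list of mature skeletal muscle markers were lower on RST days 3 and 7 and 11 on day 14, with medians of -1.25, -1.41 and -0.46. Their summed level was 257583 to 278113 CPM in LST, 96249.9 to 136137 on day 3, 81839 to 130529 on day 7 and 154066 to 215713 on day 14, and none was at 0. All 12 monocyte and macrophage markers were higher on days 3 and 7, with medians of 4.44 and 3.6, and their sum was 93.3 to 130.3 CPM in LST and 1783 to 2857 on day 3. All 12 fibroblast and fibrillar matrix markers were higher on day 7, with a median of 3.68, and summed to 1226 to 1479.9 CPM in LST and 29851 to 39040.2 on day 7. None of these was at 0 in LST. Of 9 tested adipocyte markers 6 were lower on day 3, 5 on day 7 and 3 on day 14, with 1 higher on each day and medians of -1.44, -0.75 and -0.74. Their sum was 834 to 1293 CPM in LST, 511 to 812 on day 3 and 326 to 517 on day 7, 1 of the 10 listed was at 0 in LST, and with library size alone 4, 1 and 0 were lower. Neutrophil markers, 7 tested, had 4 higher on day 3, 2 on day 7 and 2 on day 14. The 8 endothelial markers had 4 lower on day 3, 2 lower and 2 higher on day 7, and 5 higher on day 14. Erythroid markers, 7 tested, had 0 called on these days. With library size alone 2 endothelial markers were lower and 3 higher on day 3, and 4 erythroid markers were higher on day 7. Of 8 chondrocyte markers 4 were higher on day 3 and 8 on days 7 and 14, with medians of 1.24, 4.99 and 4.69. They summed to 17.6 to 27.4 CPM in LST and 423 to 502 on day 7, with none at 0. On day 21, 11 macrophage, 12 fibroblast and 6 chondrocyte markers were still higher, and on day 35, 6, 9 and 3, with 0 lower. The mature muscle list had 0 called on both days, where 21.7% and 2.92% of all genes were higher. Of 10 markers of slow and oxidative fibres 4 were lower on day 3, 5 on day 7 and 0 on day 14, and of 10 of fast glycolytic fibres 10, 10 and 8. The fast list, apart from Actn3 and Pfkm, lies within the mature muscle list, so its counts largely repeat that result. Myh2 and Mb of the slow list are also in it. Of all genes 30.1%, 35.1% and 24.5% were lower on days 3, 7 and 14, and 38.6%, 41.0% and 33.4% higher. With library size alone the mature muscle list had 16 lower on day 3, 17 on day 7 and 4 on day 14, and the slow list's day 3 median moved from -0.44 to 0.08. The median of all genes under that scaling was 0.61, 0.71 and 0.33 on these days. The shares of all genes just given are those of the TMM fit. Against the muscle mean within each library, the nuclear mean stood higher than in LST by 0.38 on day 3, 0.25 on day 7 and 0.11 on day 14, without overlap of the libraries. The mitochondrially encoded mean minus the muscle mean was 0.03 from LST on day 3, with overlapping libraries, and lay below LST by 0.41 on day 7 and 0.26 on day 14 without overlap. The part of cell mixture in the respiratory chain differences was not tested beyond these values.

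Among mitochondrially encoded members of complex I, mt-Nd1, which lies beside the ubiquinone site, stood at 17578, 20201, 18073 and 16444 CPM in LST and at 7155, 5689.8, 4032 and 4216 on RST day 7. The highest day 7 library was below the lowest LST library. Its log2 fold change was -1.78 ± 0.19 (SE, edgeR adjusted p = 2.51e-08), and on RST day 35 the libraries were back between 16085 and 18666. mt-Nd2 and mt-Nd5, proton-pumping subunits of the membrane arm, had the largest falls of the 8 on day 7, at -1.93 ± 0.20 and -1.85 ± 0.19. mt-Nd4 and mt-Nd6, of the same arm, changed by -1.70 ± 0.18 and -1.64 ± 0.16 on that day. mt-Nd3, with 0.425 to 0.477 CPM on day 7 and 1.27 to 1.60 in LST, changed by -1.66 ± 0.26. At such low counts its level is the least precise of the 8.

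Outside complex I, mt-Cytb stood at 22203, 24902, 23101 and 20939.7 CPM in LST and at 9571, 7707, 5969 and 6414 on RST day 7, a log2 fold change of -1.62 ± 0.18 with no overlap. mt-Co1 stood at 35497, 39679, 37938 and 33410.2 CPM in LST and at 13804, 11759, 8433 and 8967 on day 7. All 4 day 7 libraries of mt-Co1 lay below every LST library, at -1.77 ± 0.20 (edgeR adjusted p = 4.82e-08). On day 7 the 8 fold changes spanned -1.93 to -1.62. On day 14 mt-Co1 stood at 25395, 16152, 28911 and 23167 CPM, and replicate 2 was the lowest of that group for 7 of the 8 genes, mt-Nd3 being the exception.

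The 38 nuclear members placed in complex I by symbol moved as a block, apart from Ndufa4l2. Its paralog Ndufa4, whose protein is known as a subunit of complex IV, is counted among the 38 too. On day 7, 37 were lower and 1 was higher, with a median of -1.21, and on day 14, 36 were lower. The core subunits carry the flavin and the iron-sulphur clusters. Ndufs7, a core iron-sulphur subunit named here after its values were seen, stood at 408 ± 16.4 CPM (SD, n = 4) in LST and 137 ± 27.5 on day 7, a log2 fold change of -1.58 ± 0.16. From day 7 to day 14, 37 members rose and only Ndufa4l2 of the 38 fell, with a median of 0.71.

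Complex II, succinate dehydrogenase, also belongs to the tricarboxylic acid cycle and has no mitochondrially encoded subunit. Its flavoprotein Sdha stood at 1105, 1159, 1132 and 1130.1 CPM in LST, 509, 434, 353 and 334 on RST day 7 and 1022, 649, 1003 and 909 on day 14. The day 7 libraries lay far below LST, and those of day 14 lay between. The log2 fold changes of Sdha, the iron-sulphur subunit Sdhb and the membrane anchors Sdhc and Sdhd on day 7 were -1.47, -1.49, -1.17 and -1.02, with SEs of 0.15, 0.18, 0.14 and 0.14. On day 14 Sdhc and Sdhd were still lower, at -0.37 and -0.35, while Sdha at -0.34 and Sdhb at -0.38 had edgeR adjusted p-values of 0.0517 and 0.0625. Sdhc and Sdhd stood at -0.09 and -0.07 on day 14 with library size alone, with edgeR adjusted p-values of 0.467 and 0.573. Without RST day 14 replicate 2 the edgeR adjusted p-values of Sdhc and Sdhd were 0.113 and 0.136, and that of Sdhd was 0.0548 without RST day 14 replicate 4, 0.0667 without LST replicate 2 and 0.0646 without LST replicate 3. All 4 rose from day 7 to day 14, Sdha by 1.14 ± 0.15.

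All 8 nuclear members of complex III were lower on days 3 and 7, with medians of -1.12 and -1.28, and 6 were on day 14. The 2 that did not pass on day 14 were the core protein Uqcrc1 (-0.31, edgeR adjusted p = 0.0933) and the Rieske iron-sulphur protein Uqcrfs1 (-0.34, edgeR adjusted p = 0.0566). All 16 tested members of complex V were lower on days 3 and 7, with medians of -0.97 and -1.14, and 13 on day 14. Those that did not pass on day 14 were the head subunit Atp5a1, the stalk subunit Atp5h and the membrane subunit Atp5l, at -0.36, -0.30 and -0.13, with edgeR adjusted p-values of 0.0513, 0.0583 and 0.497. Atp5k, a membrane subunit that supports dimers of the enzyme, had -1.67 ± 0.15 on day 7, at 239.9 ± 21.3 CPM in LST and 75.4 ± 9.54 on day 7. Uqcrc1, Uqcrfs1, Atp5a1, Atp5h, Atp5l and Atp5k were named after their values were seen.

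3 genes encode the same mature c subunit of the ATP synthase rotor, with different import signals. Atp5g1 stood at 449, 493, 489 and 445 CPM in LST and 194, 164, 136 and 146 on day 7, Atp5g3 at 609, 632, 649.7 and 587 and then 352, 277, 255 and 254. Atp5g2 stood at 50, 48.6, 47.8 and 43.7 and then 30.6, 29.2, 26.4 and 26.9. None of the 3 overlapped between these groups, and the log2 fold changes were -1.55 ± 0.17, -1.12 ± 0.14 and -0.75 ± 0.11. Atp5g2 stood at -0.13 on day 7 with library size alone (edgeR adjusted p = 0.179). Per kilobase of all annotated exons in LST, Atp5g3 was the highest at 284 CPM, Atp5g1 stood at 95.5 and Atp5g2 at 28.4, and with the length of 1 transcript per gene these were 719, 99.5 and 63.1. On day 3 Atp5g2 was lower by -0.37 with the TMM scaling, but stood at 0.15 with library size alone. Atp5s, named for a coupling factor of ATP synthase, had the largest nuclear fall from day 3 to day 7, from 12.4, 11.1, 13.5 and 12.7 CPM to 9.27, 9.22, 7.76 and 8.65, at -0.51 ± 0.11. Its difference from LST on day 3 was -0.46 with TMM and 0.06 with library size alone.

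Complex IV held the largest nuclear differences in both directions on day 7. Of its 16 tested nuclear members, 12 were lower and 3 higher on day 7, and 12 lower and 2 higher on day 3. The 3 include Cox6b2 with the filter limit given above. The 3 nuclear members farthest below LST on day 7 were Cox7a1, Cox8b and Cox6a2, the isoforms known from heart and skeletal muscle. In mm10 all 3 lie on chromosome 7, Cox7a1 at 30184144 to 30186078, Cox8b at 140898945 to 140900446 and Cox6a2 at 128205435 to 128206387. Cox7a1 stood at 255, 313, 282 and 240.3 CPM in LST and at 81.2, 65.4, 54.2 and 48.8 on day 7. Cox8b stood at 403, 445, 386 and 371 and then at 127, 102, 84.3 and 87.5. Cox6a2 stood at 959, 956, 928 and 843 and then at 304, 251, 193 and 217. The highest day 7 library of each was far below its lowest LST library. The log2 fold changes were -2.13 ± 0.19, -2.0 ± 0.18 and -1.93 ± 0.17, with edgeR adjusted p-values of 2.67e-09, 2.02e-09 and 1.53e-09. Cox8b was the 1 tested member still lower on day 21, at -0.47 ± 0.17 (edgeR adjusted p = 0.0445). Without RST day 21 replicate 2 that p was 0.179, and of the 8 libraries of both groups, leaving out each in turn kept the call for RST day 21 replicate 3 alone. Cox8b stood at -0.36 on that day with library size alone, with an edgeR adjusted p of 0.0524.

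The broadly expressed counterparts of 2 of these were higher: Cox6a1, on chromosome 5 at 115345642 to 115348981, and Cox8a, on chromosome 19 at 7215153 to 7217616. Cox6a1 stood at 25.8, 24.8, 29.8 and 26.0 CPM in LST, 104, 72.2, 59.9 and 67.1 on RST day 3 and 76.6, 80.4, 88.0 and 87.9 on day 7. Every RST library of days 3 and 7 was above every LST library. The log2 fold change was 1.51 ± 0.16 on day 3, 1.65 ± 0.16 on day 7, 1.10 ± 0.15 on day 14 and 0.61 ± 0.15 on day 21, and 0.33 ± 0.15 on day 35 (edgeR adjusted p = 0.383, libraries not overlapping). Cox8a stood at 26.6, 24.2, 26.5 and 26.5 CPM in LST and at 70.5, 48.3, 43.8 and 47.7 on day 3. All 4 day 3 libraries were higher, replicate 1 most of all, at 1.02 ± 0.13. On days 7 and 14 its differences were 0.88 ± 0.13 and 0.54 ± 0.13.

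Cox7a2, the broad counterpart of Cox7a1, did not follow Cox6a1 and Cox8a. It stood at 133, 149.7, 141 and 126 CPM in LST and at 76.2, 70.0, 67.3 and 65.1 on day 7, all lower, a log2 fold change of -0.98 ± 0.12. Cox7a2l, a related protein that joins complexes III and IV in supercomplexes, stood at 74.7, 77.6, 79.8 and 73.7 CPM in LST and at 80.7, 64.6, 71.9 and 62.6 on day 3, which overlap. Its difference of -0.13 ± 0.08 on day 3 did not pass (edgeR adjusted p = 0.178), and on day 7 it was -0.50 ± 0.08 with TMM and 0.13 with library size alone. On day 14 it was -0.23 with TMM and 0.06 with library size alone, and without RST day 14 replicate 2 or LST replicate 3 the edgeR adjusted p was 0.106 or 0.0599.

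Per kilobase of all annotated exons, the muscle isoform took 97.3 ± 0.274% (SD, n = 4) of the summed level of Cox6a2 and Cox6a1 in LST, 82.3 ± 2.93% on RST day 3 and 74.5 ± 4.86% on day 7. It was 90.2 ± 3.92% on day 14, 94.4 ± 2.0% on day 21 and 96.4 ± 0.431% on RST day 35. The share of Cox8b in its sum with Cox8a was 96.4 ± 0.407% in LST and 77.8 ± 5.23% on day 7. The share of Cox7a1 in its sum with Cox7a2 was 77.7 ± 0.704% in LST and 60.8 ± 3.70% on day 7. For all 3 pairs the day 7 libraries lay below the LST libraries, with highest shares of 80.4, 84.3 and 65.3% against lowest LST shares of 97.0, 96.0 and 77.1%. With the length of 1 transcript per gene the day 7 shares were 72.1, 75.8 and 54.4%, and the LST shares 96.9, 95.9 and 72.9%, and the libraries of these groups again did not overlap.

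**Figure D4:**
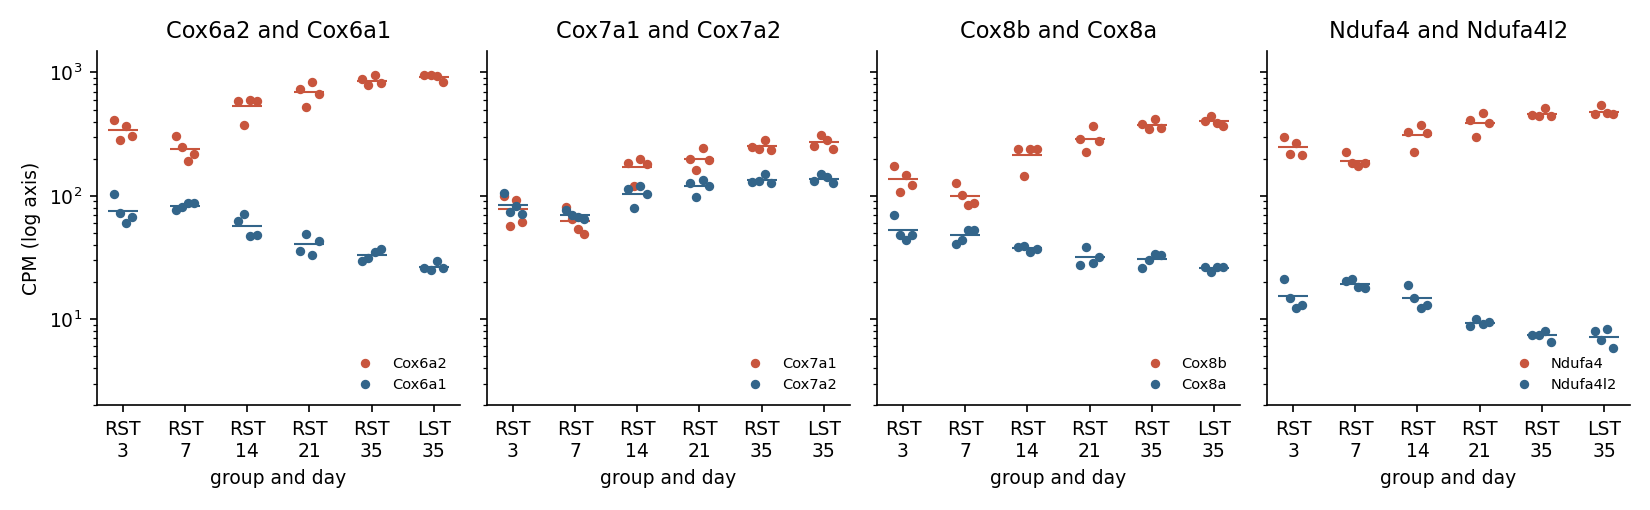
CPM on the TMM scale (log axis) of 4 pairs of related genes in the 24 joint libraries, by group and day. Points are libraries and horizontal marks group means. Cox6a2, Cox8b and Ndufa4 (red) are lowest on RST day 7 while Cox6a1, Cox8a and Ndufa4l2 (blue) are higher on days 3 and 7 than in LST, and Cox7a1 and Cox7a2 are both lowest on day 7.

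The lymph nodes gave other levels for these pairs. Tables of the 2 tissues list different genes and were scaled separately, so these are CPM of library size set side by side without a test. Cox6a1 had a median of 224 CPM over the 18 node libraries and 21.8 in LST, and Cox8a 159.7 and 22.2. Cox6a2 had 2.95 and 774, Cox8b 3.96 and 333, and Cox7a1 1.72 and 226. Cox7a2 had 51.4 and 115, so it was lower in nodes, unlike Cox6a1 and Cox8a. Atp5g1 had 5.45 and 389. The mitochondrially encoded members took 1.26 to 3.90% of a node library, where the lowest joint library, of RST day 7, stood at 3.69%. Of the 82 tested nuclear members 76 had a higher median in LST than in nodes, with a median ratio of 2.92, and all 8 mitochondrially encoded members did, with a median ratio of 6.70.

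Cox4i1, the broad form of the regulatory subunit IV, stood at 580.4, 611, 604 and 549.6 CPM in LST and 349, 296, 276 and 288 on day 7, without overlap, at -0.96 ± 0.13. Its paralog Cox4i2, known for a response to low oxygen, was low throughout, at 1.23 to 2.21 CPM in LST and 1.18 to 1.48 on day 7, and differed by -0.32 ± 0.23 (edgeR adjusted p = 0.216). Its difference on day 3, -0.55 ± 0.24 with an edgeR adjusted p of 0.0465, came with overlapping libraries. It was lost without RST day 3 replicate 2, 3 or 4 or LST replicate 1 or 3, with adjusted p-values of 0.0967 to 0.175. Cox6b1 stood at 345 ± 28 CPM in LST and 152 ± 8.71 on day 7, and Cox7b at 371 ± 29.8 and 147 ± 20.8. Both were lower on day 7, by -1.18 ± 0.13 and -1.33 ± 0.15.

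Cox6b2, an isoform known from testis, stood at 0.141, 0.182, 0.256 and 0.716 CPM in LST and 0.903, 1.49, 1.44 and 1.37 on RST day 7. The day 7 libraries were all above LST, with group sums of 152 and 27 counts. Its LST libraries alone would not have passed the low-count filter, so no fold change or test is given for it, although the counts of called members include it. On day 14 it stood at 1.06, 1.03, 0.488 and 1.08, which overlaps LST. Ndufa4l2, a paralog of Ndufa4 known to be induced by low oxygen, stood at 8.05, 6.75, 8.26 and 5.78 CPM in LST and 20.4, 21, 18.1 and 17.8 on day 7, all higher, at 1.42 ± 0.15. Ndufa4 itself, placed in complex I by its symbol although its protein is known as a subunit of complex IV, stood at 458, 540.2, 473 and 459 and then 228, 183, 173 and 183, all lower, at -1.33 ± 0.15. The 4 nuclear members called higher on day 7 were therefore Cox6a1, Ndufa4l2, Cox8a and, with the limit given, Cox6b2.

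Promoters were examined because the members moved together with a few moving against them. RefSeq promoter windows (GRCm38.p6, 250 bases before to 50 after the start) matched 68 of the 84 nuclear members. The NRF1 motif CGCANGCGC, searched on both strands as were the others, was in 20 of 68 windows (29.4%) and in 6.31% of 32851 windows of all genes. The YY1 motif AAGATGGCG was in 6 (8.82% against 1.40%), the ERR motif AAGGTCA in 8 (11.8% against 4.72%) and the ETS motif CCGGAAGT in 5 (7.35% against 3.89%). The MEF2 motif CTAAAAATA was in 0, against 0.517% of all windows. A match is a run of letters, not a binding site. The windows of the risers Cox6a1 and Cox8a and of the muscle isoforms Cox7a1 and Cox8b follow, in lower case with motif matches in capitals, 5′ to 3′ on the strand of the gene.
Cox6a1, chr5:115348909-115349208, minus strand: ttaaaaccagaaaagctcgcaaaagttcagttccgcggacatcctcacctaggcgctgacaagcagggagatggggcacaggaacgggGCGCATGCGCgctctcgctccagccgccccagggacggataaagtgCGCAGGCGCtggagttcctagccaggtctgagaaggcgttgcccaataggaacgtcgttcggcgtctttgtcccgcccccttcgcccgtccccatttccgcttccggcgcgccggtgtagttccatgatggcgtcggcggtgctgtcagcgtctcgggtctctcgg
Cox8a, chr19:7217567-7217866, minus strand: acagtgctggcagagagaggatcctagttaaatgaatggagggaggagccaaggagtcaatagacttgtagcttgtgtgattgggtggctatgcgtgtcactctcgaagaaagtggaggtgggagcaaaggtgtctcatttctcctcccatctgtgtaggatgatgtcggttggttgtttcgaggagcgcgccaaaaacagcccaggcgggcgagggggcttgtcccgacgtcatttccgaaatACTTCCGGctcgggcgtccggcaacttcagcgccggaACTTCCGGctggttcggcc
Cox7a1, chr7:30183921-30184220, plus strand: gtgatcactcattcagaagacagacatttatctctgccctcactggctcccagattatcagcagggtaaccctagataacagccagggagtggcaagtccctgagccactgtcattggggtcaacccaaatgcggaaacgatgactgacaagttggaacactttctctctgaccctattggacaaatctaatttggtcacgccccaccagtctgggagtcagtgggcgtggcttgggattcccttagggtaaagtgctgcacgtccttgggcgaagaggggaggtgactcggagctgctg
Cox8b, chr7:140900397-140900696, minus strand: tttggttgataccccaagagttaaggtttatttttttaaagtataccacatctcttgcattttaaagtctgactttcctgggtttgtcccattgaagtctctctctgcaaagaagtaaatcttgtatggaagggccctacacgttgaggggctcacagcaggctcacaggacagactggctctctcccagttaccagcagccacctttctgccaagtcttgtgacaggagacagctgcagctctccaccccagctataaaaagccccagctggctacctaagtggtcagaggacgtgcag
Cox6a1 held 3 NRF1 matches, 2 of them overlapping, at positions -162, -161 and -116 from the start. Cox8a held 2 ETS matches, at -6 and 32, both as the reverse complement. Cox7a1 and Cox8b held none of the 5 motifs in these windows, and neither did Cox7a2 or Cox6b2. Cox6a2 and Ndufa4l2 were not among the matched windows. NRF1 matches were not particular to the risers: Sdha and Uqcrc1, both lower on day 7, held 3 each, those of Uqcrc1 at 31 and 32 overlapping.

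Other genes of the organelle are given from lists written for this purpose. Beside them, 30.1%, 35.1% and 24.5% of all genes were lower on days 3, 7 and 14, and 38.6%, 41.0% and 33.4% higher. Of 45 tested assembly factors, which build the complexes, 31 were lower and 2 higher on day 3, 40 lower on day 7 and 29 on day 14, with a day 7 median of -0.78. Cox10, which makes the haem of complex IV, stood at 53.9 ± 2.26 CPM in LST and 19.6 ± 2.57 on day 7, at -1.46 ± 0.13. Ecsit and Ndufaf4, both complex I factors, differed by -1.44 ± 0.12 and -1.19 ± 0.12, and Atpaf1, a factor of the ATP synthase head, by -1.42 ± 0.14. Of 25 tested genes for transcription, replication and handling of mitochondrial DNA and RNA, 15 were lower and 2 higher on day 3, 19 and 1 on day 7, and 13 were lower on day 14. The day 7 median was -0.52, and Tfb2m, a transcription factor of mitochondrial DNA, differed by -1.19 ± 0.13. Of 77 mitochondrial ribosome genes 46 were lower and 6 higher on day 3, and 69 lower on day 7 with a median of -0.69. The day 7 medians of these 3 lists with library size alone were -0.16, 0.11 and -0.06, with 19 lower and 9 higher of the assembly factors, 7 and 10 of the DNA and RNA genes, and 22 and 16 of the ribosome genes, while Cox10, Ecsit, Ndufaf4, Atpaf1 and Tfb2m were lower under both. On day 3 with library size alone, 13 assembly factors were lower and 15 higher, with a median of 0.01. The DNA and RNA genes had 5 lower and 13 higher, with a median of 0.25. Among ribosome genes 4 were lower and 36 higher under that scaling on day 3, with a median of 0.18 in place of -0.34. On day 14, 8 assembly factors and 3 DNA and RNA genes were lower under that scaling, and 1 of each was higher. The median of all genes with library size alone was 0.61 on day 3, 0.71 on day 7 and 0.33 on day 14. Those medians lay above the medians of all 3 lists. The shares of all genes at the start of this paragraph belong to the TMM fit.

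All 17 genes of the tricarboxylic acid cycle were lower on days 3 and 7, with medians of -1.10 and -1.30, and 14 on day 14. With library size alone 16 were lower on day 3, 17 on day 7 and 0 on day 14, with medians of -0.58, -0.68 and -0.10. The median of all genes under that scaling was 0.61, 0.71 and 0.33. Mdh2, which makes oxaloacetate, stood at 858 ± 39.3 CPM in LST and 305 ± 50.3 on day 7, at -1.49 ± 0.15. Of 19 electron carrier and inner membrane exchange genes, 18 were lower and 1 higher on both days, and with library size alone 12 and 14 were lower. Slc25a4, the ADP/ATP carrier of heart and muscle, stood at 4595, 5000.3, 5011 and 4622 CPM in LST and at 2003, 1652, 1240.5 and 1110.1 on day 7, all lower, at -1.68 ± 0.18. Its broad paralog Slc25a5 was the one that rose, from 30.7, 27.0, 32.3 and 35.5 CPM in LST to 110.4, 91.7, 74.8 and 73.1 on day 3, without overlap, at 1.48 ± 0.14.

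Among 15 regulators of mitochondrial biogenesis, 11 were lower and 4 higher on day 3, and 11 lower and 3 higher on day 7. Of all genes 30.1% were lower and 38.6% higher on day 3, and 35.1% and 41.0% on day 7. With library size alone 8 regulators were lower and 6 higher on each of these days, where the median of all genes moved to 0.61 and 0.71. Ppargc1a, the coactivator PGC-1alpha, stood at 40.8, 42.3, 49.2 and 43.8 CPM in LST and at 10.6, 18.2, 18.9 and 16.5 on day 3. All RST libraries of that day were lower, at -1.45 ± 0.17. Esrra, the nuclear receptor ERRalpha that works with it, stood at 162, 174, 182 and 157 CPM in LST and 75.2, 63.0, 52.2 and 50.8 on day 7, at -1.48 ± 0.16. Perm1, a muscle regulator named for PGC-1 and ERR, stood at 314, 304, 362 and 332 CPM in LST and at 44.2, 22.8, 53.8 and 40.6 on day 3, at -3.02 ± 0.30. Those that were higher on day 7, named after their values were seen, were Pprc1 (0.59 ± 0.10), Gabpb1 (0.51 ± 0.09) and Nrf1 (0.17 ± 0.08, edgeR adjusted p = 0.0449), and on day 3 also Nrip1, a corepressor, at 0.72 ± 0.17.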

How the data were processed

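RNA of joint soft tissue (24 libraries in 6 groups of 4) and lymph nodes (18 libraries) was sequenced after Trizol or RLT extraction and NEBNext Ultra II library preparation, per the labels' protocols. The authors deposited whole-number counts per gene, unnormalized, in 1 table per tissue. Reads were trimmed and aligned with fastp and STAR on mm10, per the submitters' processing notes, with no versions. No source used here names the counting program, its strand setting or its treatment of reads with several matches.

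Joint counts were tested with edgeR 4.0.16 (R 4.3.3, limma 3.58.1): filterByExpr with a minimum count of 10, TMM scaling, 1 quasi-likelihood fit over all 24 libraries and Benjamini-Hochberg adjustment over the 16149 genes kept, with a threshold of 0.05. SEs were the log2 fold change divided by the square root of F. Levels are CPM on the TMM scale, mean log2 CPM used a prior count of 2, and symbols came from GENCODE M21 (36591 of 36604 rows matched). Joint libraries held 17842090 to 28024003 counts, and no replicates agreed within sampling noise (lowest chi-square per degree of freedom 8.27). The fitting code was checked on simulated counts.

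Alternatives were DESeq2 1.42.0, its size factors in edgeR, library size alone, scaling without mitochondrially encoded genes, no low-count filter, a replicate block, only the groups compared, a prior count of 0.5 and each library left out. Further sets without mt-Nd3, without members with shared windows or without the nuclear risers, the lists under library size alone, and levels per kilobase of 1 transcript were added after seeing the data. Members and lists were chosen with earlier results of these data known. Members named with values were the mitochondrially encoded ones, complex II, the paralog sets, the 3 largest rises and falls per comparison, members against the main direction and those not tested. Lists named up to 4 genes with the smallest adjusted p on day 7. Other names are marked as chosen after their values were seen. mt-Atp8 and Atp5o were not analysed here.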

Additional observations from a re-analysis of the deposited data

Results flagged for a closer look

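In each group of 4 libraries the named members and the summary levels were screened for 1 library that stood far from the other 3, by Dixon's criterion. Of 228 groups 12 met this, and chance gives about 1 in 20 groups. RST day 14 replicate 2 was low for Cox6a2, at 374 CPM against 582 to 603 in the others, for Cox8b, at 146 against 239 to 239.8, and for Cox6b1, at 179 against 253 to 258. These 3 are the same library, and its mature muscle mean was also the lowest of its group, at 11.58 against 11.99 to 12.14 on the log2 scale.

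Among the other members, Cox8a stood at 70.5 CPM in RST day 3 replicate 1, against 43.8 to 48.3, and at 24.2 in LST replicate 2, against 26.5 to 26.6. Cox4i2 was at 1.18 in RST day 7 replicate 3, against 1.43 to 1.48, and Cox6b2 at 0.488 in RST day 14 replicate 3, against 1.03 to 1.08. Ndufa4 was at 513 in RST day 35 replicate 3, against 442 to 449, and Atp5g2 at 32.6 in RST day 21 replicate 2, against 44.5 to 45.9.

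Of the summary levels, the mitochondrially encoded mean log2 CPM was 11.87 in RST day 35 replicate 4, against 12.14 to 12.19. The nuclear mean minus the muscle mean was -5.00 in LST replicate 4, against -4.89 to -4.88. The mitochondrially encoded mean minus the muscle mean was -0.55 in RST day 21 replicate 4, against -0.39 to -0.37. The cause of these values was not tested.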

How the results depend on the processing

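With library size alone, 23 nuclear members passed on RST day 14 against LST in place of 73, Cox7a2l stood at 0.13 on day 7, 0.06 on day 14 and -0.08 from day 7 to day 14, Atp5g2 at 0.15 and Atp5s at 0.06 on day 3. For RST day 21 against LST, 9 nuclear members passed with DESeq2 size factors, 10 without the low-count filter, 10 with DESeq2 and 8 with only the groups compared, in place of 2. With only the groups compared, 8 nuclear and 1 mitochondrially encoded members passed from day 3 to day 7, in place of 13 and 6. From day 14 to day 21, in place of 1 nuclear and 0 mitochondrially encoded members, 0 nuclear passed with size factors or only the groups compared, 3 without the filter and 4 with DESeq2, which called 1 mitochondrially encoded. The mitochondrially encoded minus nuclear difference was -0.53 on day 7 without the 4 nuclear members called higher and -0.26 on day 14 with medians over members. Leaving out 1 library gave 50 to 79 nuclear members on day 14, 1 to 19 on day 21, 0 to 28 nuclear and 0 to 6 mitochondrially encoded from day 14 to day 21, and 5 to 30 and 0 to 8 from day 3 to day 7. Of 127 called values of named members, DESeq2 and scaling without mitochondrially encoded genes kept all, library size alone lost 17 and reversed 5, and 22 were lost without at least 1 library. The cause was not tested.

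With the replicate number as a block, 16 nuclear members passed on day 21 against LST, 14 lower and 2 higher, and of the 127 called values 1 was lost, Cox8a from day 7 to day 14 at -0.34 with an edgeR adjusted p of 0.0521. The labels do not say that a number marks a shared animal or day. Same-numbered libraries of RST and LST day 35 had correlations of deviations of 0.083, 0.139, 0.0912 and 0.191, all positive. Libraries of these groups with different numbers had -0.215 to 0.116. Those of RST days 14 and 21 with the same number had 0.0924, 0.678, 0.473 and 0.127. Whether the numbers pair libraries is not settled by these values.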
